A study of Mus musculus with 4 samples.

Results

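Cytosolic ribosomal protein genes encode the protein part of the ribosome. They were taken here as the protein-coding genes whose symbol is Rpl or Rps followed by a number (with at most a short suffix such as a, x, l or l1), together with Rpsa, Rplp0, Rplp1 and Rplp2. The rule found 83 genes among the 55421 genes listed, 51 of the large subunit and 32 of the small subunit, and it used no measured value. A further 6 genes with such symbols are annotated as pseudogenes and were not counted as members. Of the 83 genes, 80 passed the expression filter, namely 48 of the large and all 32 of the small subunit, and 17144 genes passed in all. The 3 that failed were Rpl10l, Rpl39l and Rpl3l, paralogs whose counts were 0 in every library or between 1 and 4.

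The genes were followed in cultures of the prefrontal cortex (PFC) of wild-type C57BL/6 mice at postnatal day 0. The tissue was dissociated and kept for 10 days in neurobasal medium with the B27 supplement. The treated cultures received the growth factor FGF2 (5 ng/mL), the others none, and total RNA of whole cultures was sequenced. Each group had 2 libraries, numbered 1 and 2 in their titles. Nothing in the sources used here says that the 2 libraries of a group came from separate cultures or animals, and the methods of the study speak of technical replicates, so each p-value may measure only how far libraries of the same culture scatter.

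A ribosome is built from ribosomal RNA and a single copy of most of these proteins, and the cell therefore makes the proteins in matched amounts. Their mRNAs are among the most abundant and the most stable in growing cells, and most begin with a pyrimidine tract at the cap, the terminal oligopyrimidine (TOP) motif, through which mTOR signalling and the cap-binding protein Larp1 adjust their translation. FGF2 acts through receptor tyrosine kinases and is known in cortical cultures as a signal for progenitors and glia.

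The TOP motif is the sequence feature that these genes share, so the pyrimidine runs near their annotated starts are shown for the 5 members with the largest and the 5 with the lowest fold change that have an entry in the RefSeq promoter table (GRCm38.p6). Each line gives 30 bases on the strand of the gene, with the longest unbroken run of C and T within 50 bases on either side of an annotated start in capitals. The first 5 rose, with runs of 9 to 20 pyrimidines, and the last 5 were not called, with runs of 9 to 14. The runs began at positions from -39 (Rpl22) to 41 (Rpl41) relative to an annotated start, so several do not lie at it.
Rpl5, chr5:107900497-107900526, plus strand: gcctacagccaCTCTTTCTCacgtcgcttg
Rps6, chr4:86857349-86857378, minus strand: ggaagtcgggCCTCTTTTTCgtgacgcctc
Rpl22, chr4:152325679-152325708, plus strand: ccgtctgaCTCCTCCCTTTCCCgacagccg
Rpl4, chr9:64173405-64173434, plus strand: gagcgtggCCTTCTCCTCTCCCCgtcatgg
Rpl34, chr3:130730330-130730359, minus strand: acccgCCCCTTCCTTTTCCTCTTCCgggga
Rps10, chr17:27635227-27635256, minus strand: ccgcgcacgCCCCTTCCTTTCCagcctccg
Rpl22l1, chr3:28805499-28805528, plus strand: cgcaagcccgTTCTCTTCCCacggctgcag
Rpl39, chrX:37085173-37085202, minus strand: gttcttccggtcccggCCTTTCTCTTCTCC
Rps27l, chr9:66946053-66946082, plus strand: ccccgcctccaCTCCTCTCCactcctcccc
Rpl41, chr10:128549119-128549148, minus strand: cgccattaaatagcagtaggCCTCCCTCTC

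The table held 63 of the 83 members. A pyrimidine run of at least 8 bases in this window was found in 52 of the 63 (82.5%), against 39.3% of the 27025 genes with an entry. Purine runs of the same length on the gene strand were found in 15 of the 63 (23.8%), against 41.1% of all genes. The letters CCGGAAG, a core bound by ETS factors, were searched on both strands from 250 bases before to 50 bases after the start and were present in 26 of the 63 (41.3%), against 9.93% of all genes. GATGGCG, a core bound by YY1, was present in 5 (7.94%, against 4.04%) and TATAAA in 7 (11.1%, against 15.7%), and none of the 3 motifs contains another. Among members called higher with FGF2 the pyrimidine run was present in 26 of 32 (81.2%) and CCGGAAG in 13 of 32 (40.6%), and among members not called in 24 of 28 (85.7%) and 12 of 28 (42.9%). These are matches of letters and not mapped start sites.

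Whole libraries were compared before the members. Gene counts per library summed to 9166432 and 9907613 (FGF2) and to 10460236 and 10799886 (no FGF2), and 24349 to 24932 genes had a count. The cultures expressed the cortical gene Lhx2 (649 to 789 counts per library). Both neuronal and glial markers were present at high counts, so a member's level is a mean over mixed cells, and fewer cells of a type cannot be told apart from less RNA per cell. FGF2 was compared with no FGF2 by the quasi-likelihood test of edgeR over all 17144 genes, with Benjamini-Hochberg adjustment, and a gene was called at an adjusted p below 0.05.

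With FGF2, ribosomal protein genes took a larger share of the counts. They held 1.14% and 1.09% of the gene counts in the 2 libraries with FGF2, and 0.919% and 0.929% in the 2 without FGF2. The groups did not overlap, and the mean was 1.12% ± 0.030 with FGF2 against 0.923% ± 0.0071 without (SD, n = 2 libraries), a ratio of 1.21. Counting error was small beside this, since the exact 95% binomial intervals were 1.13 to 1.14% and 1.09 to 1.10% with FGF2 and 0.913 to 0.924% and 0.923 to 0.934% without FGF2 (they cover counting error only, and read pairs were not marked as single molecules). The large subunit held 0.644% and 0.624% with FGF2 and 0.516% and 0.526% without FGF2, and the small subunit 0.492% and 0.470% against 0.402% and 0.403%. The ratio of large to small subunit counts was 1.31 and 1.33 with FGF2 and 1.28 and 1.31 without FGF2, so the groups differed by about as much as the libraries of a group. With 2 libraries against 2 no exact test of the share could pass the threshold, and none was made.

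**Figure D1:**
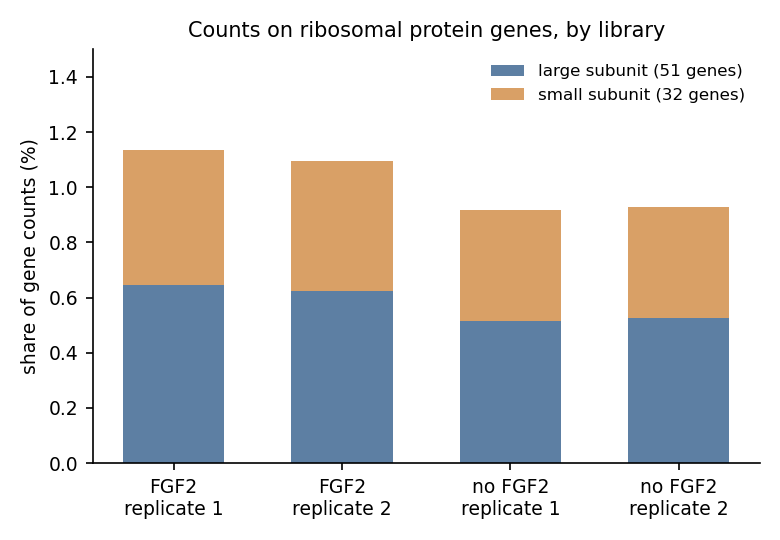
Share of all gene counts that fell on the 83 ribosomal protein genes (vertical axis, percent) in each of the 4 libraries, with the large subunit at the bottom and the small subunit on top of each bar. Both libraries with FGF2 stand above 1% and both without FGF2 below it, and both subunits contribute.

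Gene by gene, the rise was small and broad. With FGF2 47 of the 80 tested members were called higher, 1 was called lower and 32 were not called, against a background over all 17144 genes of 20.7% called higher and 19.9% called lower. The median log2 fold change of the 80 members was 0.24 (a 1.18-fold median), with quartiles of 0.10 and 0.37, and the median of all tested genes was -0.00082. No member changed by more than 1.56-fold upwards. The 2 groups did not overlap in 60 members with FGF2 higher and in 3 with FGF2 lower (33.6% and 33.4% of all tested genes), and all 47 members called higher were among the 60. DESeq2, the tool of the study, called 37 members higher and none lower, against 12% and 11.2% of the genes it tested, and edgeR had 2 members lower at an unadjusted p below 0.05. Of the 32 members not called, 23 lay above 0 and 9 below.

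**Figure D2:**
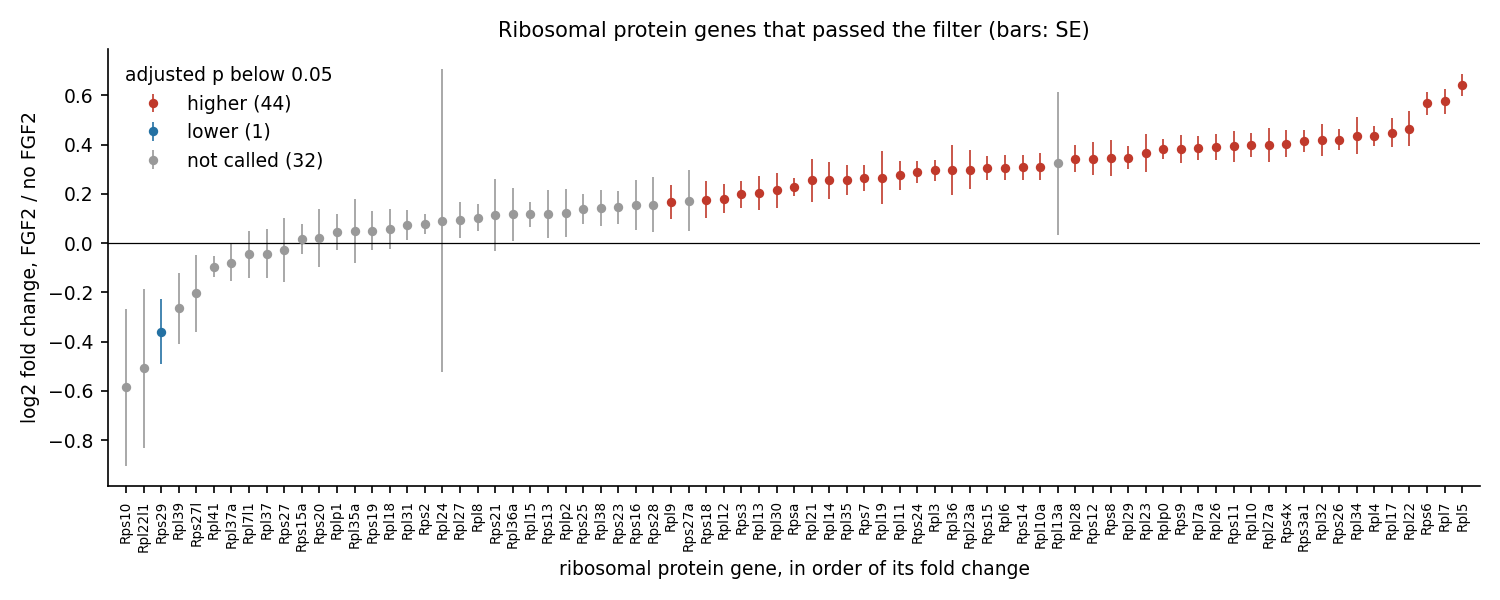
Log2 fold change of FGF2 over no FGF2 (vertical axis, points with SE) for 77 of the ribosomal protein genes that passed the filter, in order of their fold change. The 44 plotted members called higher fill the right side with log2 fold changes of 0.17 to 0.64, the single member called lower is Rps29, and the widest bars belong to Rpl24, Rpl22l1, Rps10 and Rpl13a.

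The largest rise was that of Rpl5 (chr5:107900502-107909005, plus strand), which with Rpl11 carries the 5S ribosomal RNA into the large subunit and binds Mdm2 when assembly is disturbed. Its level was 335 and 333 CPM (read counts divided by the TMM-adjusted library total) with FGF2 and 217 and 211 CPM without FGF2. The difference was 0.64 ± 0.045 on the log2 scale (SE, adjusted p = 4.6e-45 by edgeR), many times the gap between libraries of a group. Rpl11 itself stood at 154 and 140 CPM with FGF2 and 118 and 125 CPM without FGF2. It rose by less, 0.28 ± 0.058 (log2, adjusted p = 1.4e-05 by edgeR), so that the mRNAs of both proteins of the 5S particle rose.

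Rpl7 (chr1:16101295-16104662, minus strand), also of the large subunit, was measured at 217 and 220 CPM with FGF2 and at 146 and 147 CPM without FGF2 (log2 fold change 0.58 ± 0.051, adjusted p = 1.7e-27 by edgeR). The 2 libraries of each group lay within a few CPM of each other and far from the other group.

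In the small subunit the largest rise was that of Rps6 (chr4:86854660-86857412, minus strand), the ribosomal protein that S6 kinases phosphorylate downstream of mTOR. It was at 281 and 274 CPM with FGF2 and 188 and 186 CPM without FGF2 (0.57 ± 0.047, adjusted p = 4.6e-32 by edgeR). It was higher in each library with FGF2 than in either library without it.

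Among the 10 largest rises were also Rpl22, Rpl17, Rpl4, Rpl34 and Rps26, with log2 fold changes of 0.46, 0.45, 0.44, 0.44 and 0.42. Rpl4 and Rpl17 line the tunnel through which the nascent chain leaves, and Rps26 sits where the mRNA leaves the small subunit. Rps26 varied more between libraries, with 517 and 445 CPM with FGF2 and 339 and 380 CPM without FGF2, and its groups still did not overlap.

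Only Rps29 (chr12:69157722-69159186, minus strand), a small zinc-binding protein of the small subunit, was called lower. Its level was 21.8 and 15.9 CPM with FGF2 and 24.2 and 24.0 CPM without FGF2 (log2 fold change -0.36 ± 0.13, adjusted p = 0.018 by edgeR). The 2 libraries with FGF2 lay farther apart than those without. Without FGF2 replicate 2 the log2 fold change was -0.15 and not called (adjusted p = 0.50 by edgeR), without FGF2 replicate 1 it was -0.61, and without either library of the other group the call was lost (adjusted p = 0.090 and 0.081 by edgeR).

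**Figure D3:**
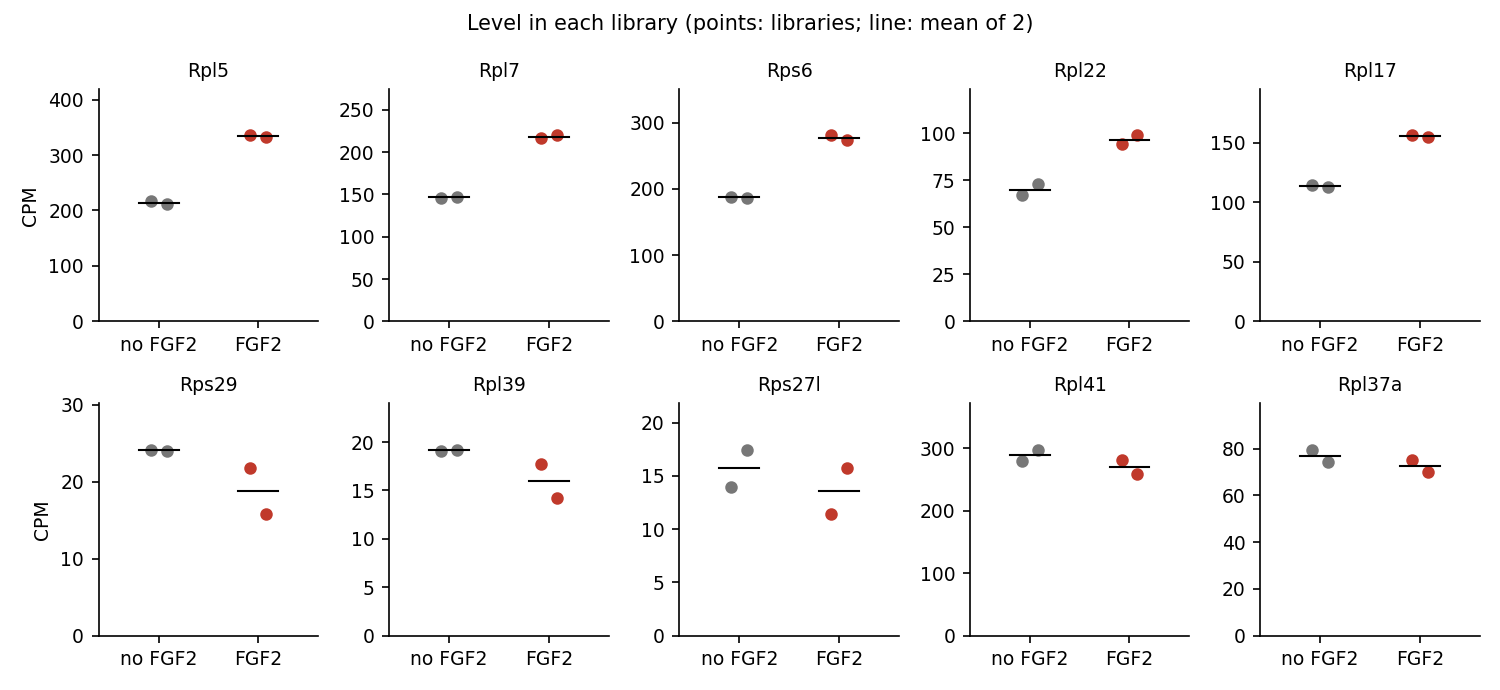
Level in CPM (vertical axes, from 0) of 10 ribosomal protein genes in the 4 libraries, with a point for each library and a line at the mean of the 2. The upper row holds 5 members from the largest rises, whose groups stand clear of each other, and the lower row the 5 lowest fold changes among members with under 300 coding bases, where the libraries with FGF2 lie farther apart or among those without.

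Members with a short coding sequence had the lower fold changes. The 10 tested members with under 300 coding bases had a median log2 fold change of -0.06. None of the 10 was called higher by edgeR, by DESeq2 or by limma-voom with all 4 libraries and no correction for length, and none had an unadjusted p below 0.05 in edgeR with FGF2 higher. Those with 300 to 449 bases had a median of 0.22 (15 of 28 called higher), those with 450 to 599 bases 0.26 (14 of 19), and those with 600 to 1299 bases 0.32 (18 of 23). Across the 80 members the fold change and the coding length had a Spearman rho of 0.48 and a Pearson r of 0.50 (with the log of the length), given as a description, since the genes share the same 4 libraries. Over the 13703 tested protein-coding genes rho was 0.02. Their medians in the same 4 length classes also rose with length, from -0.11 under 300 bases over -0.06 and -0.038 to -0.014 at 600 to 1299 bases. The shorter members also had fewer counts, with a median of 263 per library under 300 bases and 1813 at 600 bases or more, and their median SE was 0.12 against 0.051, so a change of the size seen in longer members was harder to call in them. The fold change had a rho of 0.56 with the mean count over the 80 members, and the coding length one of 0.54, and the part of depth was not tested. Among all 272 tested protein-coding genes with under 300 coding bases 15.1% were called higher and 26.5% lower.

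**Figure D4:**
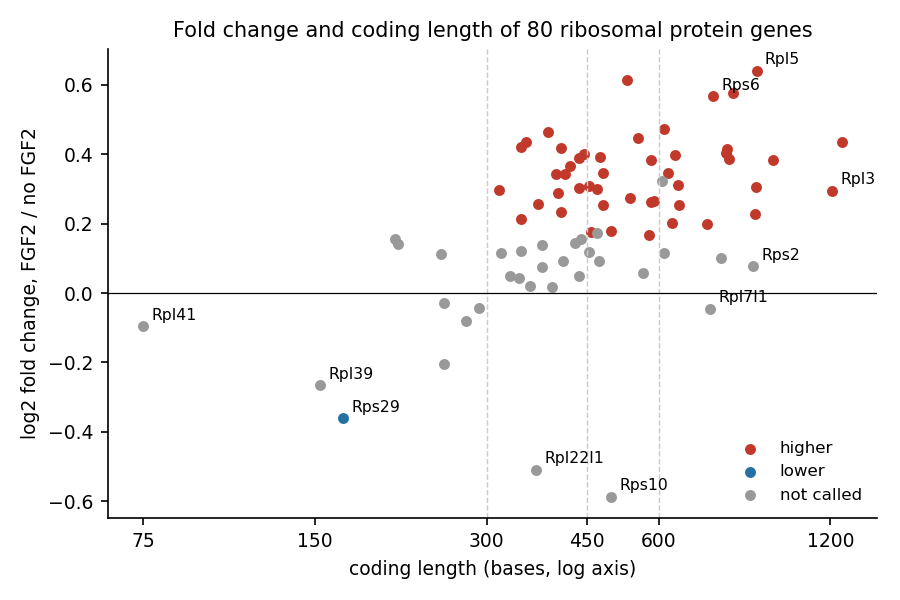
Log2 fold change of FGF2 over no FGF2 (vertical axis) against coding length in bases (horizontal log axis) for 80 ribosomal protein genes, coloured by call, with dashed lines at 300, 450 and 600 bases. The 10 members left of 300 bases centre on -0.06, and the 23 members at or beyond 600 bases centre on 0.32.

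The short members differed also between the 2 libraries with FGF2. In 9 of the 10 shortest members FGF2 replicate 1 was above replicate 2, by a median of 0.27 on the log2 scale, whereas without FGF2 replicate 1 was above replicate 2 in 5 of 10 with a median difference of 0.0017. The widest gap among the 10 was that of Rps28, a protein of the mRNA exit. It had 39.6 and 25.3 CPM with FGF2 and 29.4 and 28.5 CPM without FGF2. For members of 600 bases or more the median difference between the FGF2 libraries was 0.012. Over all 272 tested protein-coding genes under 300 bases it was 0.066, and over those of 600 to 1299 bases 0.0014. Without FGF2 replicate 2 the median log2 fold change of the short members was 0.016 and that of the longest 0.37, and Rps28 was called higher (0.45, adjusted p = 0.0016 by edgeR), and without FGF2 replicate 1 the values were -0.16 and 0.28. A correction within each library for GC content and for the exonic length of the gene over all its transcripts gave -0.03 and 0.36. This length is not the coding length, which was not corrected for. With the correction edgeR called 1 of the 10 short members higher, Rpl38 (0.197, adjusted p = 0.017). The order of the shortest and the longest group was thus the same in each of these fits.

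The shortest member, Rpl41, encodes a peptide of the intersubunit face from 75 coding bases, and per kilobase of transcript it had the highest level of all members, with 640 CPM per kilobase over the 4 libraries. It was at 282 and 259 CPM with FGF2 and at 280 and 298 CPM without FGF2, and the groups overlapped (log2 fold change -0.10 ± 0.044, adjusted p = 0.070 by edgeR). It was called lower, at -0.12 and -0.11, with upper quartile and with total count scaling, and at -0.16 without FGF2 replicate 1. Rps26 (617), Rps2 (413), Rpl29 (408) and Rps15 (408) had the next levels in CPM per kilobase, against a median of 138 over the 83 members. Among these, Rpl29 rose by 0.35 ± 0.046 and Rps15 by 0.30 ± 0.049 on the log2 scale (adjusted p = 9.9e-13 and 5.1e-09 by edgeR). Rps2 was at 423 and 424 CPM with FGF2 and 393 and 409 CPM without FGF2, and its difference of 0.08 ± 0.039 was not called (adjusted p = 0.10 by edgeR).

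By place in the ribosome, members rose on both subunits. Of 48 tested large subunit genes 30 were called higher (median 0.26), and of 32 small subunit genes 17 (median 0.19). Beside these stand 47 of all 80 tested members, and 20.7% of all tested genes called higher and 19.9% lower. The 9 genes of the peptide tunnel and its exit had 7 called higher (median 0.30), among them Rpl4, Rpl17, Rpl26 and Rpl23a, and the 2 not called were Rpl31 (0.07) and Rpl39 (-0.27, adjusted p = 0.13 by edgeR). Without FGF2 replicate 1 Rpl39 was called lower (-0.433, adjusted p = 0.036 by edgeR), and without FGF2 replicate 2 its log2 fold change was -0.114. At the mRNA exit Rps14 and Rps26 rose and Rps28 was not called (0.16). At the mRNA entry and decoding site Rps3 (0.20) and Rps15 (0.30) rose, and Rps2 (0.08) and Rps23 (0.14) were not called. In the P stalk, which recruits elongation factors, the genes of the base proteins rose. These are Rplp0 (0.38 ± 0.041, adjusted p = 4.1e-19 by edgeR) and Rpl12 (0.18, a call that DESeq2 did not make). The genes of the paired stalk proteins, Rplp1 (0.04) and Rplp2 (0.12), were not called. The difference between stalk and base was not tested. Rplp1 stood at 85.5 and 85.4 CPM with FGF2 and 82.2 and 83.5 CPM without FGF2.

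Of 13 listed members whose loss is a known cause of Diamond-Blackfan anaemia, 7 were called higher, 1 lower and 5 not (median 0.23). The list may leave out other members linked to the disease. Over all tested genes 20.7% were called higher and 19.9% lower. Among those that rose were Rpl5, Rpl11, Rpl26, Rps7, Rps24 and Rps26, and the member called lower was Rps29, which DESeq2 did not call. Rps19, the gene most often affected in the disease, was at 0.05 ± 0.079 (adjusted p = 0.66 by edgeR). Rps27a, which is made as a fusion with ubiquitin, had a log2 fold change of 0.17 ± 0.13 and was not called.

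Paralogs were set beside their parents. Rpl22 rose (94.2 and 98.7 CPM against 66.9 and 73.0 CPM, 0.46 ± 0.072, adjusted p = 1.2e-09 by edgeR), and its paralog Rpl22l1, with 68.2% identical bases in the aligned coding sequences, had 26 and 30 counts with FGF2 and 44 and 46 counts without FGF2 (-0.51 ± 0.32, adjusted p = 0.21 by edgeR). Rpl22l1 thus made up 2.95% and 3.00% of the counts of the pair with FGF2 and 5.89% and 5.50% without FGF2, groups that did not overlap. The difference in this share was not tested. Rpl7l1 made up 16.4% and 16.3% of the counts of its pair with Rpl7 with FGF2 and 23.7% and 22.5% without FGF2. Its own log2 fold change was -0.04 ± 0.095, and it was not called, while Rpl7 rose (0.58).

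In the remaining pairs Rps27l (104 and 155 counts with FGF2, 147 and 189 without) and Rps27 (220 and 188, 243 and 227) were both not called. Rpl3l, known from striated muscle, had 1 to 4 counts, beside 2687 to 3134 counts of Rpl3, which rose (0.30). Rpl10l and Rpl39l, known from the testis, had 0 counts in every library, which allows up to 0.277 to 0.331 CPM at 3 counts, beside Rpl10, which rose (0.40), and Rpl39. Rps4l, annotated as a transcribed processed pseudogene, had 22 and 35 counts in the libraries with FGF2 and 56 and 68 in the others (-0.95 ± 0.30, adjusted p = 0.0048 by edgeR), while Rps4x rose (0.40).

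Ribosomal protein genes have many processed copies in the genome, and 79 of the 83 members shared 100 bases or more, at 95% identity or higher, with an annotated transcript of another gene. In 65 members such stretches covered more than 50% of the transcript, and in Rpl29 all of it, from 32 genes. The authors kept reads with a mapping quality of at least 20, which removes reads with several equal matches, so levels of such members may be too low, by an amount that was not tested. The 301 annotated ribosomal protein pseudogenes together held 2746 to 3095 counts per library, 2.86 to 3.02% of the members' counts. The 15 tested members with under 50% of the transcript in copies had 8 called higher and 1 lower (median 0.20), a comparison added after the values were seen.

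Another 3 members, picked out after their values were seen, had far lower counts than most of the others. Rps10 had 31 and 25 counts with FGF2 and 60 and 35 counts without FGF2, and 91.6% of its exonic bases lie under RPS10-NUDT3, a readthrough gene on the same strand that is listed at 0. Its log2 fold change of -0.59 ± 0.32 was the lowest of all members and was not called (adjusted p = 0.13 by edgeR), but without no FGF2 replicate 2, the library with 35 counts, it was called lower (-0.945, adjusted p = 0.044 by edgeR), and without no FGF2 replicate 1 its log2 fold change was -0.127. The copy Rps10-ps2 had 358 to 465 counts. Rpl24 had 6 to 12 counts, with 71.5% of its exonic bases under Gm28037, and Rpl13a had 39 to 52 counts, with 59.3% under Gm45713 and Mir5121. HTSeq by its usual setting gives no count to a read that fits 2 genes, and the part of this in the low counts was not tested.

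The other genes of translation were counted in the same fit, in which 20.7% of all tested genes were called higher and 19.9% lower. Of the genes of ribosomal proteins outside the symbol rule, Rack1 (0.37 ± 0.056, adjusted p = 2.6e-10 by edgeR) and Fau (0.21 ± 0.078, adjusted p = 0.022 by edgeR) rose. Rpl36al, with at most 6 counts in a library, failed the filter. Of 20 mRNAs of translation factors and other proteins known to carry the TOP motif, 13 were called higher and none lower (median 0.23). No fall among them was called by DESeq2 or limma-voom either, and none had an unadjusted p below 0.05 in edgeR. Eif4b, which aids the cap-bound helicase, rose the most, with 416 and 394 CPM against 235 and 250 CPM (0.74 ± 0.042, adjusted p = 1.6e-65 by edgeR). Eef1a1, which brings aminoacyl-tRNA to the ribosome, was at 4075 and 4074 CPM with FGF2 and 2701 CPM in both libraries without FGF2 (0.59), and Eef2, the translocation factor, rose by 0.51.

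Of 30 ribosome assembly factors 3 were called higher and 9 lower (median -0.08), beside 20.7% and 19.9% of all tested genes. The largest falls were those of Bop1 (22.6 and 23.9 CPM against 38.0 and 36.5 CPM, -0.68 ± 0.11, adjusted p = 2.2e-08 by edgeR), Rrp12 (-0.65) and Bysl (-0.55), factors of large and small subunit maturation. Sbds, which releases Eif6 from the large subunit, rose by 0.59, Ltv1 by 0.51 and Mybbp1a by 0.28. Of 19 genes of RNA polymerase I and its factors 2 were called higher (Polr1c, 0.41, and Polr1d, 0.34) and 1 lower (Ubtf, -0.35). Of 77 tested mitochondrial ribosomal protein genes, 3 were called higher (Mrps6, Mrpl24 and Mrpl45, at 0.45, 0.32 and 0.29) and 5 lower. Both shares were below those of all tested genes, and the median of the 77 was -0.08. Of the 5, Mrpl20 (-0.73), Mrpl57 (-0.54) and Mrps26 (-0.51) fell the most. The 78 genes of this list together held 1529 to 1694 CPM per library, against 9144 to 11482 CPM for the 83 cytosolic members. Small changes were thus harder to call in them.

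Among 19 genes of mTOR and cap control, 4 were called higher and 7 lower (median -0.07). The share called higher was near the 20.7% of all tested genes, and the share called lower was above their 19.9%. Akt1s1 (0.53), an inhibitor within mTOR complex 1, Pdcd4 (0.27), an inhibitor of the cap-bound helicase, and Eif4ebp2 (0.26), an inhibitor of Eif4e, rose. Ddit4 (-0.46) and Sesn2 (-0.42), stress-induced inhibitors of mTOR, fell. Mtor itself fell as well (173 and 168 CPM against 206 and 217 CPM, -0.31 ± 0.050, adjusted p = 5.3e-09 by edgeR). Rps6kb1 (0.18) was also called higher, and Larp1 (-0.29), Eif4e (-0.18), Rptor (-0.16) and Eif4g1 (-0.13) were also called lower. Of 8 Myc family genes 4 were called higher and 1 lower. Myc is a transcription factor known to drive ribosomal protein genes. Its level was 66.1 and 56.0 CPM with FGF2 and 37.2 and 38.1 CPM without FGF2 (0.70 ± 0.090, adjusted p = 2.1e-13 by edgeR). The others called higher were Mxi1 (0.57), Mycl (0.38) and Mxd1 (0.27), and Mycn fell by 0.72 on the log2 scale. The part of these genes in the change of the ribosomal protein genes was not tested. DESeq2 called 28 genes of these lists against 54 with edgeR, and it did not call Fau, Ltv1, Polr1c, Polr1d, Ddit4 or any of the mitochondrial genes named here.

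**Figure D5:**
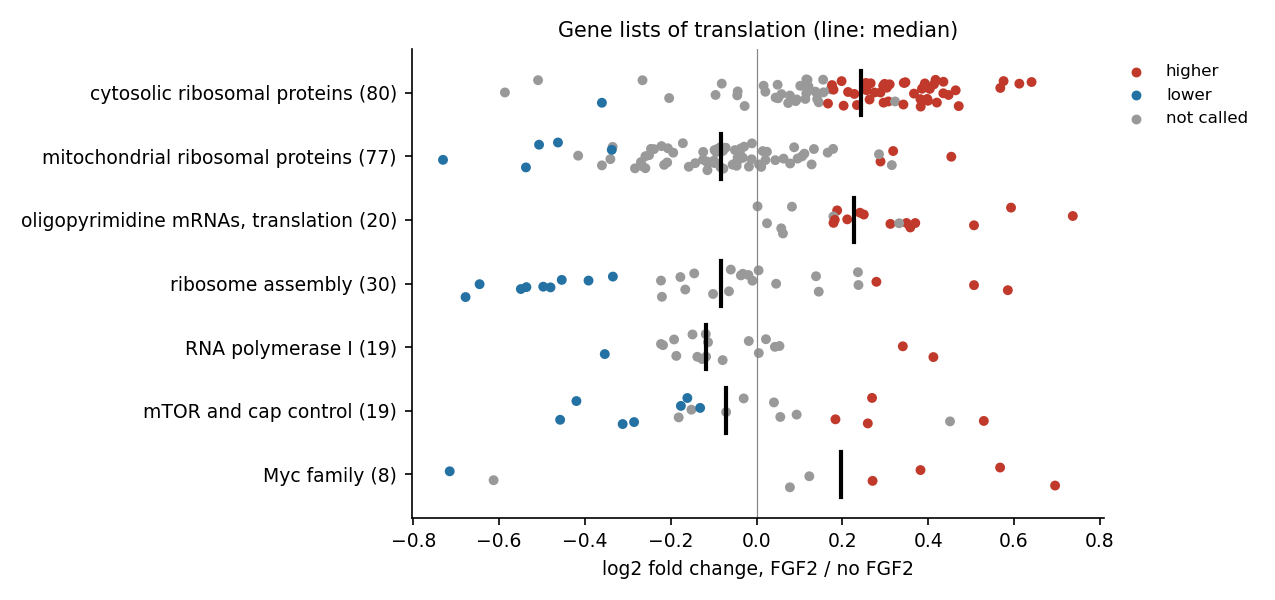
Log2 fold change of FGF2 over no FGF2 (horizontal axis) for the genes of 7 lists of translation, with a point for each tested gene, coloured by call and spread vertically for display, and a line at the median of each list. The cytosolic ribosomal proteins and the oligopyrimidine mRNAs of translation factors centre on 0.24 and 0.23, and the mitochondrial ribosomal proteins and the assembly factors on -0.08.

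Markers of cell types moved with the treatment as well. Their calls stand beside 20.7% of all tested genes called higher and 19.9% called lower. All 8 pan-neuronal markers were called lower with FGF2, with summed levels of 3499 and 3637 CPM against 5165 and 5142 CPM, and 7 of 8 proliferation markers were called lower (208 to 210 CPM against 281 to 283 CPM). Of 8 astrocyte markers 7 were called higher (12182 and 12330 CPM against 7353 to 7383 CPM), and all 7 tested of 8 oligodendrocyte lineage markers were called higher (1535 and 1554 CPM against 457 and 472 CPM), with Mog at 1 to 4 counts. Of 7 microglial markers 3 were tested and called higher (32.1 and 33.6 CPM against 20.7 to 20.8 CPM), and Aif1, P2ry12 and Tmem119 had at most 7 counts. Fibroblast and mural markers had 1 higher (Pdgfrb, 0.73) and 2 lower (Col1a1, -2.18, and Col1a2, -1.73) of 5 tested. Their summed level (57.9 and 62.4 CPM against 49.1 and 50.6 CPM) was mostly Pdgfrb (46.6 and 49.2 CPM against 28.6 and 28.9 CPM). Endothelial markers had 1 higher of 2 tested, with Cldn5 at 0. Of the 7 genes of cortical identity 2 were called lower (326 and 342 CPM against 440 and 444 CPM). The part of these cell type markers in the change of the ribosomal protein genes was not tested.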

How the data were processed

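Total RNA was made into 4 libraries with a total RNA kit and read as pairs of 150 bases. The authors mapped reads to mm10 with HISAT2 2.1.0, used Samtools to keep a mapping quality of at least 20 and HTSeq 0.11.2 to count (names and versions from the submitters' processing notes), and deposited the raw counts per gene without normalization; the annotation release and strand setting are not given in the sources used here. The 5 tallies that name no gene were left out; read pairs in no feature made up 43.2 to 45.9% and ambiguous ones 1.47 to 1.77% of each library. Names, coordinates and lengths come from GENCODE M21 (55154 of 55421 identifiers matched). Level per kilobase uses the shortest transcript with the principal coding sequence.

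Counts were tested with edgeR 4.0.16 in R 4.3.3 (TMM, its expression filter with the groups, robust quasi-likelihood fit), with DESeq2 1.42.0 and limma-voom (limma 3.58.1) among the alternatives; levels are CPM. SE is the log2 fold change divided by the root of the F statistic. In counts simulated for 17144 genes of FGF2 against no FGF2, edgeR called 153 of 200 genes changed 2-fold and 34 of 200 changed 1.2-fold. Copies were searched with BLAST 2.17.0 among annotated transcripts only, since no genome sequence was used here. Replicates of a group differed by more than sampling noise (chi-square per degree of freedom 2.28 and 1.76), so all 4 libraries were kept.

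The members and lists were chosen with earlier results of these data known. Genes were named when they were among the 10 largest rises or falls of called members without overlap, the 5 highest levels per length, the structural and paralog lists, members failing the filter, or the 3 largest rises and falls of each other list. A few genes taken by this rule are left out of the text. Mxd1, Rps6kb1, Larp1, Eif4e, Rptor and Eif4g1 were added after the values were seen and were not followed singly in the alternative fits. Alternative settings were scaling by RLE, by the upper quartile or by the total count, TMM without the members, no filter, at least 10 counts in every library, DESeq2, limma-voom, a replicate block, GC and length offsets (without and with the block), each library left out, a threshold of 0.01, members without copies, and other definitions of the share.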

Additional observations from a re-analysis of the deposited data

How the results depend on the processing

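All 47 members called higher stayed above 0 in each of the 15 alternative fits, and 37 of them were called higher in every fit. The number called higher was 37 with DESeq2 and at most 52 with GC and length offsets, and 39 to 48 when a library was left out. The number called lower was 2 with upper quartile and with total count scaling (Rps29 and Rpl41), 0 with DESeq2 and 0 at a threshold of 0.01, and 0 to 3 with a library left out. The median log2 fold change was 0.22 to 0.29 across the scalings, filters, tools and offsets, and 0.193 to 0.31 with a library left out (lowest without FGF2 replicate 1, highest without FGF2 replicate 2). Members without any copy in another transcript were 2, of which 1 was called higher and 0 lower (median 0.13), too few to weigh; with under 50% in copies, added after the values were seen, 8 were called higher (median 0.198). The difference in share of counts was 0.192 percentage points, 0.262 when the 1% of other genes with the highest counts left the denominator, and 0.17 to 0.213 with a library left out. Called genes of the other translation lists fell from 54 to 28 with DESeq2, and were 40 to 51 with a library left out; those of the structural lists were 17 to 19 of 20. A fit without a library leaves its group with 1, which is assumed to vary like the other group. The cause of these changes was not tested.

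The deviations of replicate 1 had a correlation between groups of 0.0021 over all tested genes and 0.28 over the 80 members. These values cannot settle whether libraries of the same number were paired. With the replicate block 46 members were called higher and 1 lower with a median of 0.244, and with GC and length offsets and the replicate block 52 and 1 with a median of 0.289.

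With a library left out the log2 fold change of 5 members that were not called changed sign, with ranges of -0.198 to 0.447 for Rps28, -0.424 to 0.446 for Rpl24, -0.0588 to 0.157 for Rps19, -0.209 to 0.135 for Rps27 and -0.0114 to 0.103 for Rpl35a. Of these Rps28 was called higher without FGF2 replicate 2. Of 77 single genes followed, 50 kept their direction and call in every alternative. With GC and length offsets Rpl15, Rpl38, Rpl8, Rps19 and Rps2 gained a call higher. Depth limits Rpl24, Rps10, Rpl13a and Rpl22l1, with at most 60 counts in a library.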
